A study of Mus musculus with 2 samples.

Results

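The genes described here encode the NF-kappaB transcription factor subunits and the inhibitors that hold them, 10 genes in all out of 55536 named genes in the larger gene table. They were taken by GENCODE M21 gene name, and each name matched 1 gene. Rel subunits numbered 5 (Nfkb1, Nfkb2, Rel, Rela and Relb), classical cytoplasmic inhibitors 3 (Nfkbia, Nfkbib and Nfkbie), and atypical nuclear IkB proteins 2 (Nfkbiz and Bcl3). The cells were regulatory T cells labelled as inflammation-experienced, taken at 6 months of age from the male adult mouse strain Foxp3CreERT2 x Rosa26YFP. In this strain a tamoxifen-dependent Cre recombinase is driven by Foxp3, the factor that defines regulatory T cells, and Rosa26 carries a YFP reporter. Polyadenylated RNA of 1 group and 1 biological replicate was sequenced in 2 technical libraries of sheared fragments of 100 to 300 bp. The agent that caused the inflammation was not given in the sources used here, and no control cells were analysed here. Every comparison below is therefore between genes, between transcripts or between the technical libraries, and no SD covers the variation between animals.

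NF-kappaB acts as dimers of Rel-domain proteins. In the classical arm, dimers such as RelA with p50 or c-Rel with p50 are held in the cytoplasm by IkB proteins until the IKK complex marks these for destruction, and the freed dimers then induce the gene for IkBα, which shuts the response off. In the non-classical arm, the kinase encoded by Map3k14 leads to processing of p100, the product of Nfkb2, to p52, which pairs with RelB. In regulatory T cells c-Rel takes part in the induction of Foxp3, and RelA and c-Rel are needed for the identity and function of the mature cells.

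The gene totals were 15386113 and 13604480 rounded estimated counts in technical replicates 1 and 2. The 6 regulatory T cell markers and the 6 general T cell markers were all detected, that is at 1 TPM (a length-scaled share of all transcripts) or more in both libraries, and their summed levels were 2339 and 2258 TPM and 7191 and 7060 TPM. Foxp3 itself was at 22.1 and 17.9 TPM. Of 8 myeloid markers 0 were detected (summed 1.70 and 1.22 TPM, with Adgre1 and Cd14 at 0), and of 4 natural killer cell markers 0 (1.18 and 1.84 TPM, with Ncr1 at 0). Detected members numbered 1 of 6 for B cells (summed 6.40 and 4.11 TPM), 1 of 6 for dendritic cells (3.52 and 4.18 TPM, with Itgax at 0), 1 of 6 for stromal cells (1.83 and 1.75 TPM), 3 of 4 for CD8 T cells (16.1 and 15.5 TPM) and 1 of 4 for plasma cells (11.7 and 1.55 TPM, with Tnfrsf17 at 0).

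All 10 NF-kappaB genes were detected, and all 10 also stood at 10 TPM or more in both libraries. Nfkbia, which encodes IkBα, was the most abundant of them, and Nfkb1 and Rela were the most abundant subunits. The other 3 subunits stood lower, at about the same level in TPM, close to the median of 13.5 TPM over the 13511 detected genes. In a bulk sample, a low level in every cell and a high level in few cells cannot be told apart.

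**Figure D1:**
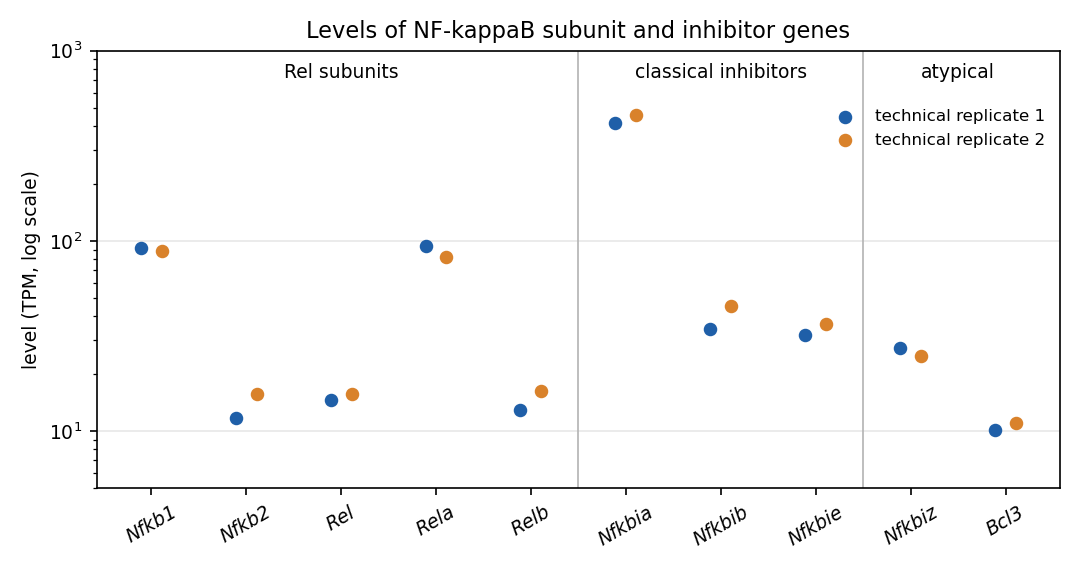
Level of each gene in TPM on a log axis, with 1 point per technical library and the genes arranged by role. Nfkbia stood at 418.7 and 458.4 TPM, Nfkb1 and Rela between 82.5 and 93.6 TPM, and Nfkb2, Rel and Relb between 11.7 and 16.2 TPM.

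Rela encodes RelA (p65), the activating subunit of the classical dimer, and lies on chromosome 19 of mm10 at 5637483 to 5648130 on the plus strand. It was at 93.6 and 82.5 TPM in technical replicates 1 and 2 (88.1 ± 7.88, SD, n = 2). Nfkb1 encodes p105, the precursor of p50, and lies on chromosome 3 at 135584655 to 135691547 on the minus strand. It was at 91.6 and 88.7 TPM (90.2 ± 2.06, SD, n = 2). The library values of these genes overlapped, so their order in TPM was within the spread between libraries. Among the 13511 detected genes Nfkb1 ranked 1526 and Rela 1566 from the top. Together they made up 82.5% and 78.2% of the TPM of the 5 subunit genes.

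Rel, on chromosome 11 at 23736847 to 23770970, encodes c-Rel, the subunit tied to T cell activation and to Foxp3 induction. It stood at 14.6 and 15.7 TPM (15.1 ± 0.79, SD, n = 2). Relb, on chromosome 7 at 19606217 to 19629438, encodes the partner of p52 in the non-classical arm, and was at 13.0 and 16.2 TPM (14.6 ± 2.33, SD, n = 2). Nfkb2, on chromosome 19 at 46304320 to 46312385, encodes p100, which both holds RelB and is cut to p52. Its values were 11.7 and 15.7 TPM (13.7 ± 2.84, SD, n = 2). Rel and Relb overlapped in their library values, as did Relb and Nfkb2. These genes ranked 6343 (Rel), 6482 (Relb) and 6692 (Nfkb2) among detected genes, near the middle of the range. Their likeness in TPM depended on the scaling for length. Rel had 1344 and 1278 estimated counts at a length of 7466 nt. Relb had 369 and 397 at mean lengths of 2342 and 2276 nt, and Nfkb2 477 and 562 at 3340 and 3313 nt.

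Nfkbia, on chromosome 12 at 55489410 to 55492647, was at 418.7 and 458.4 TPM (438.6 ± 28.1, SD, n = 2). Its lower library value was above the higher value of Nfkb1, the next gene in the order, and the means stood 4.86-fold apart. It ranked 308 among detected genes. Nfkbib encodes IkBβ, which forms more lasting complexes with the dimers, and lies on chromosome 7 at 28758251 to 28767512. It was at 34.3 and 45.3 TPM (39.8 ± 7.81, SD, n = 2). Nfkbie encodes IkBε, an inducible inhibitor, and lies on chromosome 17 at 45555703 to 45563169. It was at 32.1 and 36.5 TPM (34.3 ± 3.15, SD, n = 2). The library values of Nfkbib and Nfkbie overlapped, and both stood below Rela and above Nfkbiz in both libraries.

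Nfkbiz encodes IkBζ, a nuclear protein that binds p50 and is needed for a subset of secondary response genes, and lies on chromosome 16 at 55811375 to 55838899. Its level was 27.5 and 24.9 TPM (26.2 ± 1.81, SD, n = 2). Bcl3 encodes a nuclear partner of p50 and p52 homodimers and lies on chromosome 7 at 19808462 to 19822770. It was the lowest of the 10 genes, at 10.1 and 11.0 TPM (10.6 ± 0.62, SD, n = 2), and ranked 7546 among detected genes. Its values rested on 131 and 153 estimated counts, against 5531 and 5367 for Nfkbia. Exact Poisson 95% intervals, which cover counting error only, ran from 8.47 to 12.02 TPM and from 9.32 to 12.9 TPM for Bcl3. Those of Nfkbia ran from 407.8 to 429.9 TPM and from 446.3 to 470.9 TPM. The deposited posterior mean TPM of Nfkbia, a second estimate of its level, lay below these intervals, at 372.5 and 401.9. This was not particular to Nfkbia. Posterior mean TPM also lay below the gene's own intervals in both libraries for Nfkb1, Rela, Rel, Nfkbib and Nfkbie. For Nfkb2, Relb, Nfkbiz and Bcl3 it lay within them. The intervals of Nfkbia did not overlap between the libraries, while those of Bcl3 did.

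TPM divides a gene's reads by the mean length of its estimated transcripts, so the order of the genes also depended on how reads were assigned to short and long transcripts. With estimated counts divided by the length of the longest principal transcript of each gene (depth-scaled counts per kilobase), a scale added after the TPM values were seen, Nfkbia remained highest, at 227.8 in technical replicate 1 and 238.9 on average. Rela then stood above Nfkb1 in both libraries, at 71.0 and 63.4 against 44.0 and 43.4, and these values did not overlap. For Nfkb1 the table used a mean length of 2498 and 2544 nt, while its full-length transcript Nfkb1-201 has 4117 nt. Nfkbie was at 26.1 and 29.4, Nfkbib at 16.8 and 21.4 and Nfkbiz at 17.6 and 16.2 on this scale. For Nfkbib the longest principal transcript is Nfkbib-201 (2061 nt), which held 6.76% and 1.73% of its TPM, while Nfkbib-202 (1243 nt) held 93.2% and 98.3%. Bcl3 remained lowest at 4.60 and 6.08. Rel (11.7 and 12.6), Relb (10.9 and 13.2) and Nfkb2 (9.88 and 13.1) overlapped here too. For Rel both scales used 7466 nt, and for Relb and Nfkb2 the principal lengths of 2209 and 3141 nt were close to the mean lengths. Their overlap on this scale was therefore no separate check.

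**Figure D2:**
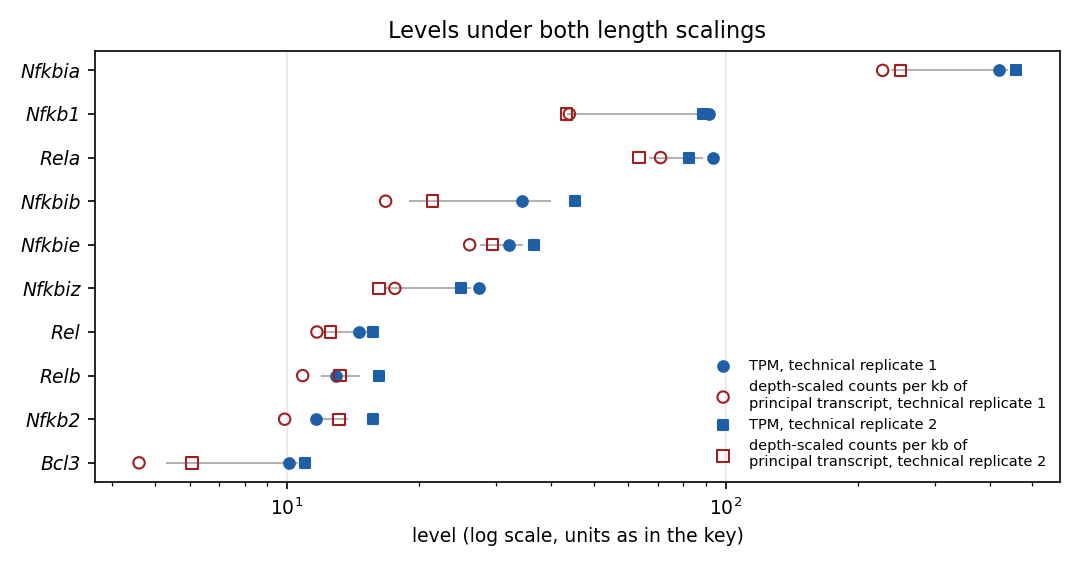
Level of each gene on both length scales, on a log axis: filled symbols are TPM and open symbols are depth-scaled counts per kilobase of the principal transcript, with circles for technical replicate 1 and squares for technical replicate 2. The scales have different units, so genes are compared within each scale. Nfkb1 is at about the level of Rela in TPM. In counts per kilobase it is at 44.0 and 43.4, below the 71.0 and 63.4 of Rela.

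The RNA of the 3 classical inhibitors exceeded that of the 5 subunits. Their summed level was 485.1 and 540.3 TPM, against 224.5 and 218.8 TPM for the subunits, a ratio of 2.16 and 2.47 (2.32 ± 0.22, SD, n = 2). Nfkbia supplied 86.3% and 84.9% of the inhibitor TPM. The ratio was 1.95 on the principal-length scale and 1.72 over protein-coding transcripts only, as means of both libraries. Over estimated counts without any scaling for length it was 0.89 and 0.99, so the inhibitors exceeded the subunits only on scales that divide by length. These are ratios of RNA levels, and protein was not measured.

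The transcript table listed 56 transcripts for these genes. Of these, 22 took 10% or more of their gene's TPM in either library. A total of 9 had no stretch of 50 bases found in no other transcript of the same gene, the length implied by the difference of 49 nt between length and effective length. In 8 genes the same transcript led in both libraries, and in Relb and Bcl3 the leading transcript differed between them.

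**Figure D3:**
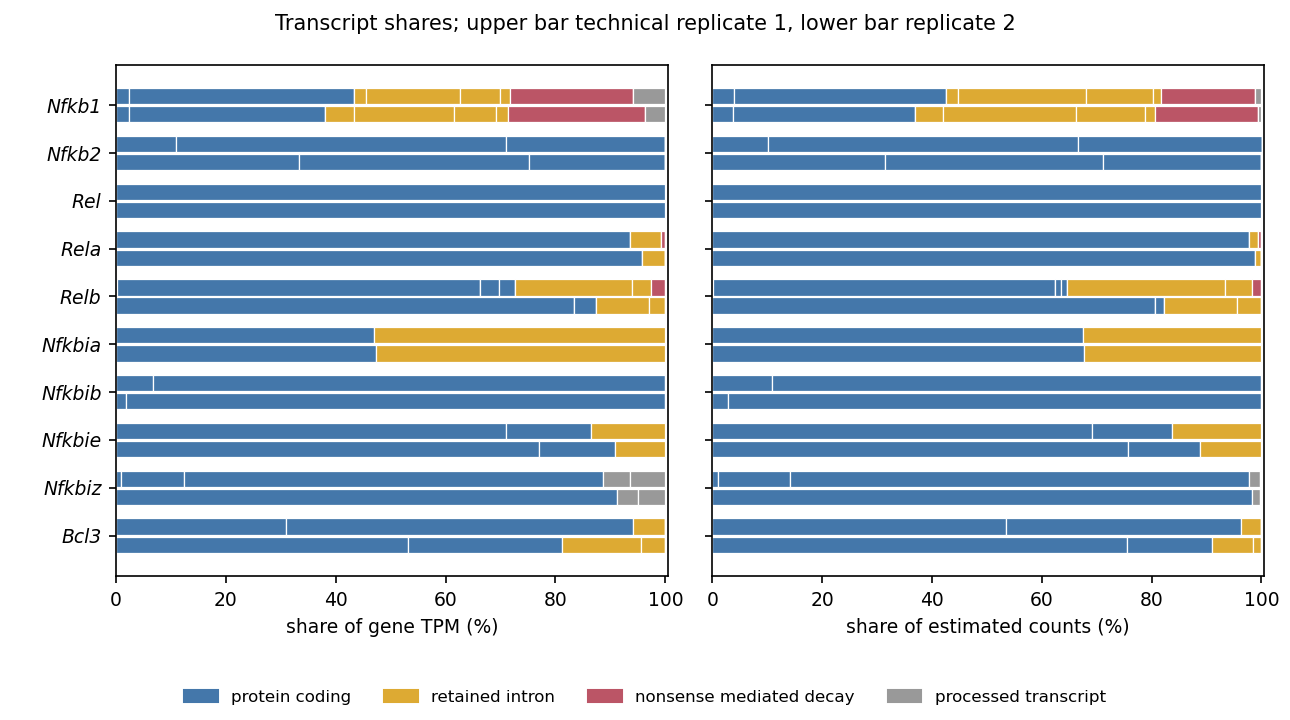
Share of each gene's TPM (left) and of its estimated counts (right) by transcript, in percent, with segments coloured by the annotated transcript type and the upper bar of each pair for technical replicate 1. Retained-intron transcripts take 53.1% and 52.7% of Nfkbia TPM but 32.6% and 32.3% of its counts.

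Nfkbia had only a pair of annotated transcripts. The coding Nfkbia-201 (314 codons, 1578 nt) was at 196.3 and 216.6 TPM, and the retained-intron Nfkbia-202 (701 nt) was at 222.5 and 241.8 TPM. By TPM the retained-intron form therefore held 53.1% and 52.7%, while by estimated counts the coding form held 67.4% and 67.7%, so the leading transcript depended on the scale. Of the 701 bases of Nfkbia-202, 669 lie in exons of Nfkbia-201, and only 32 bases at its start are intron. Correspondingly, 32 of its 652 possible 50-base stretches are its own. The start of Nfkbia-202 and the exon junction of Nfkbia-201 (GENCODE M21 transcripts, GRCm38, minus strand of chromosome 12) are shown because the forms part there. Capitals mark the start of exon 2, which both share, and the lower-case bases are exon 1 in Nfkbia-201 and intron in Nfkbia-202.
Nfkbia-201: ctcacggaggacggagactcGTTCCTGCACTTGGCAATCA
Nfkbia-202: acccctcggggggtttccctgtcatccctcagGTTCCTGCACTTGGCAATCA

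Nfkb1 reads were spread over 8 transcripts. Nfkb1-201, the annotated full-length form of 971 codons, held only 2.43% and 2.30% of the gene's TPM. Nfkb1-203, a fragment with an incomplete start that covers exons from 13 on, held 40.9% and 35.8%. Next came Nfkb1-207, annotated for nonsense-mediated decay, with 22.5% and 24.9%, and Nfkb1-204, a retained-intron form that starts in exon 1, with 17.1% and 18.1%. Transcripts not annotated as protein-coding took 56.7% and 61.9% of Nfkb1 TPM, against 6.48% and 4.18% for Rela.

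Nfkb1-203 leaves out exon 24 of the 25 exons of Nfkb1-201, at 135589327 to 135589504 of chromosome 3, in the coding region for the inhibitory C-terminal part of p105. Of its 2305 stretches of 50 bases 47 are its own, and Nfkb1-201 has 2 of 4068 of its own. The junctions (minus strand) are shown because the transcripts part there, with capitals for the bases after the shared exon.
Nfkb1-201: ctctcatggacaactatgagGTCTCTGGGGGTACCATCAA
Nfkb1-203: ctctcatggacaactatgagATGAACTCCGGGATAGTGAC

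In Relb, Relb-202 held 66.1% and 0% of TPM in technical replicates 1 and 2, and Relb-203 held 0% and 83.3%. Apart from a few bases at the 3′ end of the longer one, the sequences are the same. The 2203 bases of Relb-203 are all contained in the 2209 bases of Relb-202, and the annotation places the same bases at different splice positions. Neither has a 50-base stretch found in no other Relb transcript. Relb-201 lacks a microexon of 9 bases at 19622926 to 19622934 of chromosome 7. In Relb-203 the microexon is annotated with 11 bases, at 19622926 to 19622936, so the annotations differ at its start on the minus strand. Relb-201 took 0.18% and 0% of TPM. By posterior mean TPM, the authors' second estimate, Relb-201 instead held 24.7% and 21.6%, Relb-202 27.8% and 20.03%, and Relb-203 10.6% and 36.2%. The deposited SDs of the Relb-201 counts were 54.0 and 66.7, around estimates of 0.61 and 0 counts, so the share of the form without the microexon is not known from these tables. The stretches around it (minus strand) are shown with the annotated microexon in capitals.
Relb-201: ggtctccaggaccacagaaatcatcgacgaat
Relb-202: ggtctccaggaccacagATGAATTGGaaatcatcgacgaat
Relb-203: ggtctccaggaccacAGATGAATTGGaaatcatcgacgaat
Between Relb-202 and Relb-203 the printed stretch of 41 bases differs at 0 positions. Relb-202 stood at 8.56 and 0 TPM and Relb-203 at 0 and 13.5 TPM. The retained-intron form Relb-206 was at 2.74 and 1.55 TPM, 21.2% and 9.54% of the gene by TPM, and 10.8% and 5.05% by posterior mean TPM.

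In Bcl3, the fragment Bcl3-203 (755 nt, incomplete start) held 63.2% and 27.9% of TPM, and the full-length Bcl3-201 (1850 nt, 448 codons) held 30.9% and 53.2%. By estimated counts Bcl3-201 led in both libraries, with 53.5% and 75.5%. The retained-intron form Bcl3-202 took 5.91% and 14.4% of TPM. All bases of Bcl3-203 lie in Bcl3-201, and these shares rest on few reads: 56.1 and 23.8 estimated counts for Bcl3-203.

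The other genes kept their leading transcript. Rel has a single annotated transcript, Rel-201, of 588 codons. Rela-201 (549 codons) held 93.5% and 95.8% of Rela TPM, and Nfkbib-202 (359 codons) held 93.2% and 98.3% of Nfkbib TPM. The Nfkb2 transcripts Nfkb2-204 and Nfkb2-202 encode the same 899 codons from alternative first exons. Nfkb2-204 held 60.2% and 41.9% of TPM, Nfkb2-202 held 10.8% and 33.3%, and Nfkb2-206 (878 codons) held 29.0% and 24.9%. By posterior mean TPM, Nfkb2-204 held 43.8% and 32.5% and Nfkb2-202 12.3% and 28.1%. The estimated counts of Nfkb2-202 were 48.6 and 177.0, with deposited SDs of 29.8 and 47.4, and no difference between the libraries was tested for transcripts.

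Nfkbiz-204, with an internal first exon and 728 codons, held 76.3% and 91.3% of Nfkbiz TPM. Nfkbiz-203, which encodes a shorter form of 629 codons, held 11.5% and 0%. By posterior mean TPM, Nfkbiz-204 held 64.82% and 76.55% and Nfkbiz-203 9.81% and 2.15%. The estimated counts of Nfkbiz-203 were 146.3 and 0, with deposited SDs of 51.3 and 19.4. Of the 3578 stretches of 50 bases in Nfkbiz-204, 22 are its own. Nfkbie-201 (364 codons) held 71.1% and 77.1%, Nfkbie-203 (371 codons) 15.4% and 13.7%, and the retained-intron form Nfkbie-202 13.6% and 9.24%. The 2 coding forms of Nfkbie splice to different positions of the last exon, printed for the plus strand of chromosome 17 with the bases after the junction in capitals. Of their 50-base stretches, 11 of 2386 in Nfkbie-201 and 46 of 2307 in Nfkbie-203 are their own.
Nfkbie-201: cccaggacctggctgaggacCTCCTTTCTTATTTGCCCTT
Nfkbie-203: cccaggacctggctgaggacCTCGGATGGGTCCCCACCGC

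Several of these genes are known targets of NF-kappaB itself, and their promoters were searched for the kappaB consensus, the 10-base sequence that Rel dimers bind. RefSeq promoters (GRCm38.p6, 250 bases before to 50 bases after the start) were found for 7 of the 10 genes, in 9 windows. Nfkb1, Relb and Nfkbiz had no entry. Both strands were searched, and a palindromic match counted once. Matches were present in 7 of the 9 windows, against 4.505% of all 32851 promoters of the same length, and in 5 of the 7 genes. Nfkb2 supplied several of these windows, and some of them share sequence. As known targets were among these genes beforehand, the difference from all promoters was not a test of their regulation. Rela and Nfkbib had 0 matches.

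The first match of each gene is printed with 10 bases on each side, in the direction of transcription and with the match in capitals, so that inhibitor and subunit genes can be read side by side. In Nfkb2 and Rel a further match overlapped the first by all but 1 base, and Nfkb2 had 3 RefSeq starts with 3, 2 and 1 matches, some of them in shared sequence.
Nfkb2: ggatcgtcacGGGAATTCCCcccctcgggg
Rel: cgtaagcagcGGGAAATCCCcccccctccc
Nfkbia: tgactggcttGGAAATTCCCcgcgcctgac
Nfkbie: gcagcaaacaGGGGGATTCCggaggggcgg
Bcl3: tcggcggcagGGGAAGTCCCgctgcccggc
The printed stretches lie at chr19:46304688-46304717 on the plus strand (Nfkb2), chr11:23771042-23771071 on the minus strand (Rel), chr12:55492657-55492686 on the minus strand (Nfkbia), chr17:45555584-45555613 on the plus strand (Nfkbie) and chr7:19822734-19822763 on the minus strand (Bcl3). Counted from the start, the first base of the match is at -39 in Nfkb2, -92 in Rel, -29 in Nfkbia, -106 in Nfkbie and 3 in Bcl3. A match describes the sequence only, and no binding was measured here. The genes with a match spanned the whole range of levels, from Nfkbia at the top to Bcl3 at the bottom, and Rela, with no match, was among the highest.

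The technical libraries were compared gene by gene with a two-sided exact binomial test on rounded estimated counts, with Benjamini-Hochberg adjustment over 17334 genes and a call at an adjusted p under 0.05. The test compares these libraries and no conditions. Of the 10 genes 6 were called, 5 higher and 1 lower in technical replicate 2. Over all tested genes 19.2% were called, and 23.3% among the 8459 genes whose summed counts lay between the 284 of Bcl3 and the 10898 of Nfkbia.

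Nfkb2 was higher in technical replicate 2 by a log2 ratio of 0.41 (adjusted p = 0.00013, exact binomial test), Nfkbib by 0.35 (adjusted p = 0.00087), Relb by 0.28 (adjusted p = 0.042), Nfkbie by 0.17 (adjusted p = 0.046) and Nfkbia by 0.13 (adjusted p = 5.6e-05). Rela was lower, with a log2 ratio of -0.17 (adjusted p = 0.00068). Bcl3 (0.40, adjusted p = 0.087), Rel (0.10, adjusted p = 0.20), Nfkb1 (-0.02, adjusted p = 0.78) and Nfkbiz (-0.12, adjusted p = 0.19) did not pass. On the log2(TPM + 1) scale the difference for Bcl3 was 0.11, and the mean length behind its TPM was 1090 nt in technical replicate 1 and 1317 nt in technical replicate 2. Relb and Nfkbie lost their calls with DESeq2 size factors (adjusted p = 0.052 and 0.067, with 19.5% of all genes called) and without the filter on low counts (adjusted p = 0.068 and 0.075, with 9.56% called). The classical inhibitor genes Nfkbia, Nfkbib and Nfkbie were not called in the smaller table (adjusted p = 0.37, 0.081 and 0.092).

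These libraries differed by more than the sampling of reads, with an index of dispersion of 4.98 over all genes. A common dispersion over genes was also used (edgeR exact test, coefficient of variation 0.11). With it, 0 of the 10 genes were called, against 1.8% of all genes. An unadjusted p under 0.05 was reached by 0 of the 10 genes and by 1690 of the 17334 tested genes. This dispersion was fitted to the same libraries that were compared, so their differences widened it. A lack of calls therefore does not show that the levels were alike. The lowest adjusted p of the 10 under this test was 0.63, for Nfkb2. In the smaller gene table of whole counts, 3 were called: Nfkb2 (log2 ratio 0.44, adjusted p = 0.0018), Relb (0.42, adjusted p = 0.045) and Rela (-0.18, adjusted p = 0.040). Of all genes tested there, 6.57% were called. Jchain, a plasma cell gene, also differed between the libraries, at 10.2 and 1.22 TPM, and its part in these differences was not tested.

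**Figure D4:**
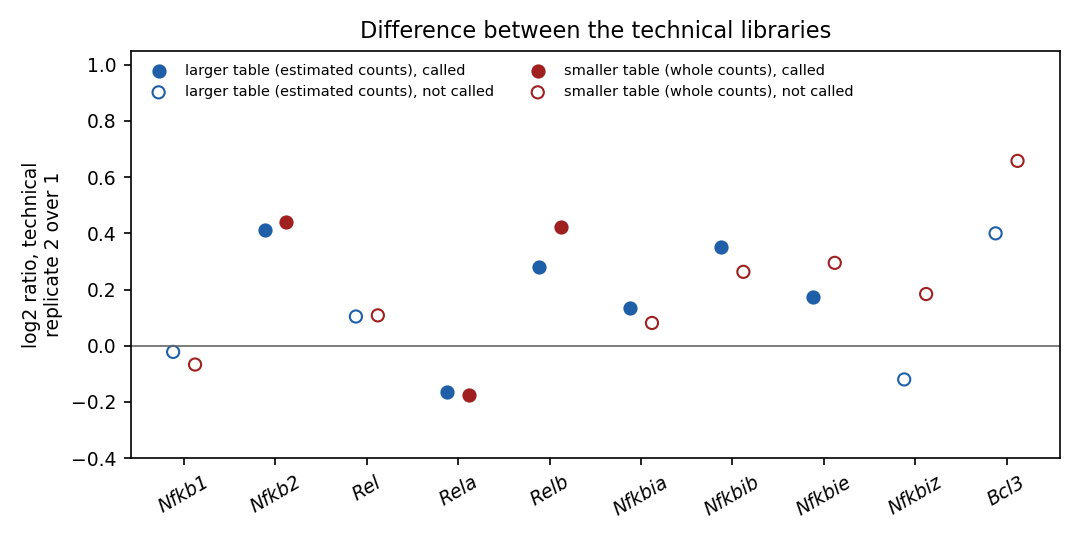
Log2 ratio of technical replicate 2 over technical replicate 1 for each gene, from rounded estimated counts (blue) and from the smaller table (red), with filled points for an adjusted p under 0.05. Nfkb2, Relb and Rela are called in both tables, and Nfkbiz lies at -0.12 in one and 0.18 in the other.

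The smaller table held 23.3% and 24.0% as many counts as the larger one. For the NF-kappaB genes this share ran from 17.6% and 18.2% in Rel to 79.3% and 76.9% in Nfkbib, with 32.3% and 32.1% in Nfkbia. Rel was the only one of the 10 genes below the share of all genes in both libraries. Some of the genes overlap others in the annotation: Nfkb1 overlaps Gm43430 on the same strand, Nfkb2 overlaps AC114539.1 and Psd, Nfkbib overlaps Ccer2 and Sirt2, and Bcl3 overlaps the antisense genes Gm16174 and Gm16175. Except for Nfkb1 and Gm43430, these pairs lie on opposite strands. The strand setting of the counting was not given in the sources used here, so their reads may not be separate. For Nfkb1 and Gm43430, no strand setting would separate reads from the bases they share.

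The wider pathway was read from 10 further lists of 91 genes. Of these, 86 were detected, with a median of 35.4 TPM over the 91 genes. Undetected were the receptor genes Il1r1, Ltbr and Tnfrsf11a and the target genes Ccl3 and Ier3. Between the libraries 22 of 89 tested genes were called, 12 higher and 10 lower in technical replicate 2, or 24.7%, against 19.2% of all tested genes.

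Of the 18 receptor and receptor-proximal genes 15 were detected, with a median of 38.4 TPM over the list. Tnfrsf4, which encodes the costimulatory receptor OX40, was at 508.0 and 491.7 TPM, and Tnfrsf18, which encodes GITR, at 474.6 and 438.4 TPM. Tnfrsf18 is also one of the regulatory T cell markers. By contrast Ltbr, the lymphotoxin β receptor of stromal and myeloid cells, was at 0.16 and 0 TPM.

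All 4 genes listed for signalling from the T cell receptor to IKK were detected, led by Prkcq, a kinase activated by the receptor (107.0 and 102.0 TPM), and Malt1, a protease (42.8 and 46.7 TPM). Among the 10 kinase genes, all detected, Ikbkb, the catalytic IKK subunit of the classical arm, was highest at 104.3 and 108.1 TPM. Next by mean level was Ikbke, a related kinase of the interferon arm, at 78.2 and 67.7 TPM, which overlapped with Tbk1 at 61.6 and 71.5 TPM. Traf1 led the 7 adaptors, all detected, at 231.1 and 227.4 TPM, with the ubiquitin ligase gene Birc3 at 89.9 and 93.5 TPM. Birc3 overlapped with Birc2 (88.3 and 94.0 TPM). Of the 5 genes for linear ubiquitination and Ripk1 signalling, all detected, Sharpin (67.9 and 91.5 TPM) and Rbck1 (40.2 and 50.5 TPM), both subunits of the ligase, were highest by mean level. Rbck1 overlapped with the adaptor gene Tradd (43.4 and 44.4 TPM).

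All 10 negative regulators were detected. Tax1bp1, an adaptor of the A20 enzyme, was at 184.5 and 171.1 TPM, and Tnip1, another A20 partner, at 84.0 and 84.0 TPM. Among the 8 genes for protein turnover, all detected, Skp1a, a subunit of the ligase that marks IkBα, was at 247.0 and 242.5 TPM, and Pdlim2, which promotes loss of nuclear RelA, at 123.8 and 96.6 TPM. The 5 co-regulators were all detected, and Crebbp, a histone acetyltransferase gene, was at 51.6 and 52.1 TPM. The remaining IkB and Ras-like genes, 4 of 4 detected, were led by Nfkbid, which encodes the nuclear protein IkBNS (27.8 and 33.6 TPM). The Ras-like gene Nkiras2 (17.9 and 22.1 TPM) was second by mean level and overlapped with Nkiras1 (17.8 and 21.5 TPM).

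Of 20 known target genes 18 were detected. Irf1, an interferon-response factor, was at 216.6 and 218.8 TPM, and Bcl2a1b, a survival gene with near-identical copies, at 195.3 and 216.9 TPM. Among the 91 genes, a call with more than a 2-fold difference was made for Ccl4 alone, a chemokine gene, at 5.93 and 13.3 TPM (log2 ratio 1.15, adjusted p = 0.00022, exact binomial test). With the common dispersion in edgeR, Ccl4 had an adjusted p of 0.045. Ltb, which encodes lymphotoxin β, differed by less than 2-fold, at 83.6 and 139.9 TPM (log2 ratio 0.75, adjusted p = 2.9e-39, exact binomial test), and had an adjusted p of 0.047 in edgeR. Of the 20 targets 5 were called higher and 1 lower in technical replicate 2, or 30% against 19.2% of all tested genes, with a median log2 ratio of 0.02.

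**Figure D5:**
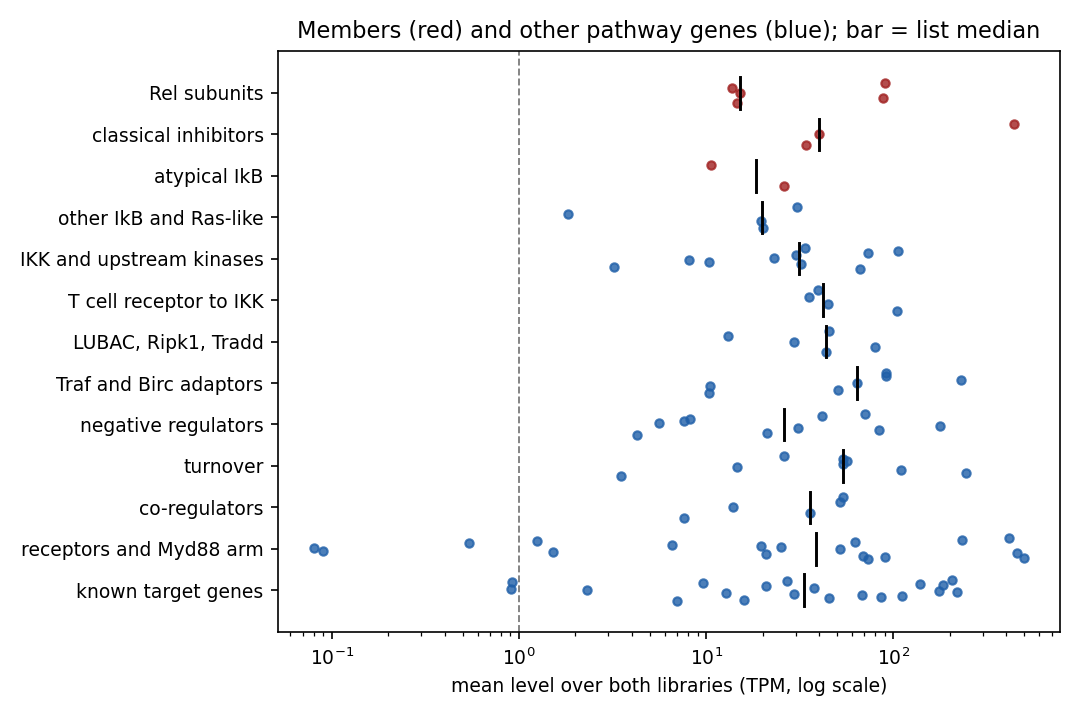
Mean level over both libraries in TPM on a log axis for every gene of each list, with the NF-kappaB subunits and inhibitors in red, the other pathway genes in blue, a bar at each list's median and a dashed line at 1 TPM. The receptors span the widest range, from Ltbr at 0.16 and 0 TPM to Tnfrsf4 at 508.0 and 491.7 TPM.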

How the data were processed

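The analysis of both libraries started from deposited files. Per the file headers, the larger gene table and the transcript table held estimated counts and TPM, with posterior mean TPM, the percent of a gene's TPM per transcript, and signal values (SDs of counts, and credibility bounds of TPM, which were not used for any result). The smaller table, deposited without a header, held whole-number counts. Per the text deposited with each library, the larger tables used mm10 with GENCODE M21 and transcriptome alignments, and the smaller table GENCODE M4 and genome alignments. Aligner, quantifier and versions are not given in the sources used here.

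Levels are the mean TPM ± SD over technical libraries, which measure technical spread. Gene totals were 15386113 and 13604480 estimated counts; entries that name no gene (0.174% and 0.158% of counts) were left out of library sizes and tests. Estimated counts were rounded and genes with at least 10 summed counts were tested with a two-sided exact binomial test, with TMM library sizes from edgeR 4.0.16, and p-values were adjusted by Benjamini-Hochberg, with a threshold of 0.05. Alternatives were DESeq2 1.42.0 size factors, no filter, an edgeR exact test with a common dispersion fitted with an intercept only, the smaller table, posterior mean TPM, protein-coding transcripts, counts, other detection thresholds, another pseudocount, and each library alone. The scaling to the principal transcript's length was chosen after seeing the data. The binomial test was run on simulated counts that held read sampling alone, which says nothing of the larger spread between these libraries.

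All 10 genes were named, with transcripts at 10% or more of their gene's TPM in either library, the highest 2 genes of each pathway list and every called gene with more than a 2-fold difference, except for a gene of the co-regulator list that is not reported here. Ltb, Tbk1, Tradd, Birc2, Nkiras1 and further transcripts were named where a contrast needed them, after their values were seen. With 2 libraries of 1 sample, no gene was named for a like pattern. The genes and lists were chosen with earlier results of these data known.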

Additional observations from a re-analysis of the deposited data

How the results depend on the processing

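Detection of all 10 genes held at thresholds of 5 and 10 TPM, with posterior mean TPM and in each library alone. The ratio of inhibitor to subunit TPM, 2.32, was 2.26 with posterior mean TPM, 1.72 over protein-coding transcripts, 1.95 on the principal-length scale and 0.938 over estimated counts without length scaling, and ranged from 2.16 to 2.47 with 1 library left out. The number of genes called between the libraries, 3328, was 312 with the common dispersion of edgeR and 726 in the smaller table, which tested 11051 genes. Among all tested genes, 19.2% were called, 19.5% with DESeq2 size factors and 9.56% without the filter. The share was 1.8% with the common dispersion and 6.57% in the smaller table. Of the 10 NF-kappaB genes, 6 were called, 4 with DESeq2 size factors, 4 without the filter, 0 with the common dispersion and 3 in the smaller table. Relb and Nfkbie were the calls lost with DESeq2 size factors (adjusted p = 0.052 and 0.067) and without the filter (adjusted p = 0.068 and 0.075). The log2 ratio of Nfkbiz changed sign in the smaller table, from -0.12 to 0.18, and passed in neither; the cause was not tested. The same transcript led in both libraries in 8 genes by TPM, 9 by counts and 8 by posterior mean TPM. No paired analysis was possible because there was 1 group, and leaving out a library leaves no test between libraries. Depth limits Bcl3 most, with 131 and 153 counts.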
